A study of Mus musculus with 6 samples.

Results

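The genes described here encode the matrix metalloproteinases (MMP), the ADAM and ADAMTS metalloproteinases, the ADAMTS-like proteins (ADAMTSL) and the tissue inhibitors of metalloproteinases (TIMP). They were taken by name and biotype: protein-coding genes whose symbol begins with Mmp, Adam or Adamts and a number or suffix, or is one of Timp1 to Timp4. This gave 83 of the 54532 genes in the deposited table, namely 22 MMP, 4 TIMP, 33 ADAM, 19 ADAMTS and 5 ADAMTSL genes. Mmp1a is listed as a polymorphic pseudogene and was not a member.

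RNA was sequenced from 3 libraries of neonatal mouse ventricular cardiomyocytes carrying a short hairpin RNA (shRNA, which lowers its target transcript) against Gdf11, called shGDF11, and from 3 carrying a control hairpin (sh-nc in the sample names, sh-Vector in the protocol). Both groups came from C57BL/6J mice aged 1 day with no genetic change named, were given packaged hairpins at a multiplicity of infection of 200, and were collected 48 h later. The sample names number the hairpin treatments 1 to 3 and leave it unstated whether a number is a culture or a hairpin. Separate cultures are not stated, so p-values measure the spread between these libraries, which may be technical.

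MMPs are secreted or membrane-bound zinc enzymes that cut collagens, elastin and other matrix proteins, and most are made as inactive precursors. ADAMs are membrane proteins, many of which release the outer part of growth factors, receptors and adhesion molecules, while ADAMTS enzymes are secreted and cut proteoglycans and procollagens. ADAMTSL proteins resemble ADAMTS enzymes without the protease domain. TIMPs bind the active site of MMPs and of some ADAM and ADAMTS enzymes, and in the heart the balance of enzymes and inhibitors is known for its part in matrix turnover.

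The libraries held 15267083 to 16152910 reads in listed genes. Levels are in FPKM, the authors' fragments per kilobase of gene, scaled to library size. Gdf11 had 0.614, 0.601 and 0.778 FPKM in the shGDF11 libraries, against 2.76, 2.30 and 2.31 FPKM in the control libraries, a log2 fold change of -1.34 ± 0.125 (SE; limma adjusted p = 0.00079). Spearman's rho across the tested genes was 0.982 to 0.983 between shGDF11 libraries and 0.972 to 0.979 between control libraries. The second principal component (17.5% of the variance) placed control replicates 1 and 3 at its opposite ends, so the calls of the tested members were also computed without each library. The cardiomyocyte markers were high: 9 genes summed to 5898 to 6369 FPKM in shGDF11 and 5569 to 7146 FPKM in control libraries. Markers of other cells were present too, and those of fibroblasts (9 genes) summed to 377.1 to 394.4 FPKM in shGDF11 and 298.2 to 352.4 FPKM in control libraries. The largest part of these sums was Col1a1, whose groups overlapped, with means of 158.6 FPKM in shGDF11 and 139.2 FPKM in control libraries.

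Of the 83 members, 50 reached 0.5 FPKM on average across all 6 libraries and were tested with limma on log2(FPKM + 0.5), shGDF11 minus control, a scale that understates the change of low genes. Calls required an adjusted p (Benjamini-Hochberg, across 15418 tested genes) under 0.05. Among the 50, 10 rose and 11 fell. Of all tested genes 27.6% were called, 14.4% as higher and 13.1% as lower, against 42% of the tested members. Of tested protein-coding genes 30.3% were called. The counts given below for families and gene lists are to be read beside these shares. The median log2 fold change was 0.03 over the tested members and 0.01 over all tested genes. After scaling to TPM (each library set to the same summed level) 13 members rose and 7 fell, and among all called genes the share of rises was 66.3%, against 52.4% before. That scaling shifts the median of all tested genes to 0.08. The groups did not overlap for 14 members that were higher and 14 that were lower among the 50 tested; of all tested genes, 45.8% did not overlap, 23.7% as higher and 22.2% as lower. An exact two-sided permutation test of a single gene cannot give less than p = 0.1 with 3 libraries against 3, and gave that value for each called member.

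**Figure D1:**
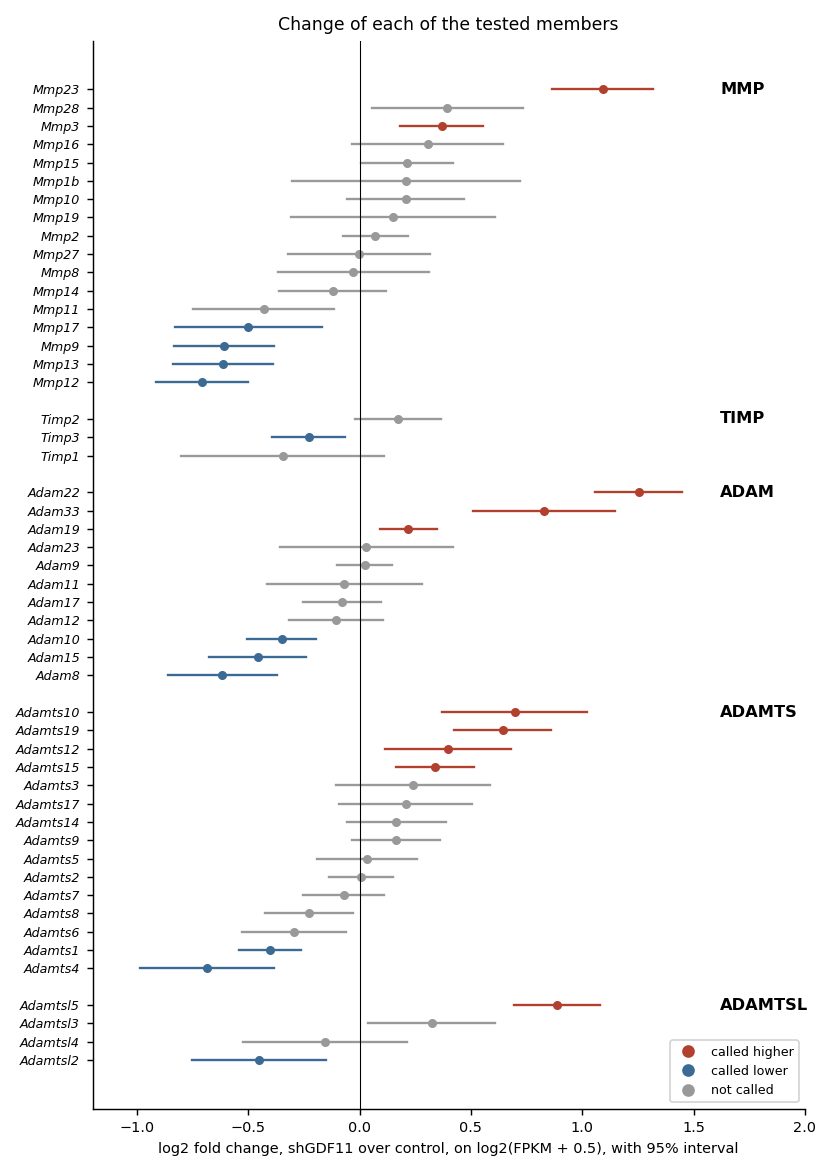
Log2 fold change of the 50 tested members, shGDF11 over control, on log2(FPKM + 0.5), with 95% intervals from limma, grouped by family (red called higher, blue called lower, grey not called). Rises and falls occur in the MMP, ADAM, ADAMTS and ADAMTSL families, from 1.25 for Adam22 to -0.71 for Mmp12.

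The called members moved by moderate amounts. The rises ran from 116.9% to 264.2% of the control mean, and 3 of them (Adam22, Adam33 and Mmp23) were at least 2-fold. The falls ran from 56.8% to 85.1% of the control mean. The least sampled called member in any library had 51 reads. In terms of level, 9 members with a mean of at least 20 FPKM (Mmp3, Timp2, Adam9, Mmp2, Adam10, Timp1, Mmp15, Mmp14 and Timp3) held 64.3% to 65.8% of the summed FPKM of all 83 genes in each library. Of these 9, Mmp3 rose and Adam10 and Timp3 fell.

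**Figure D2:**
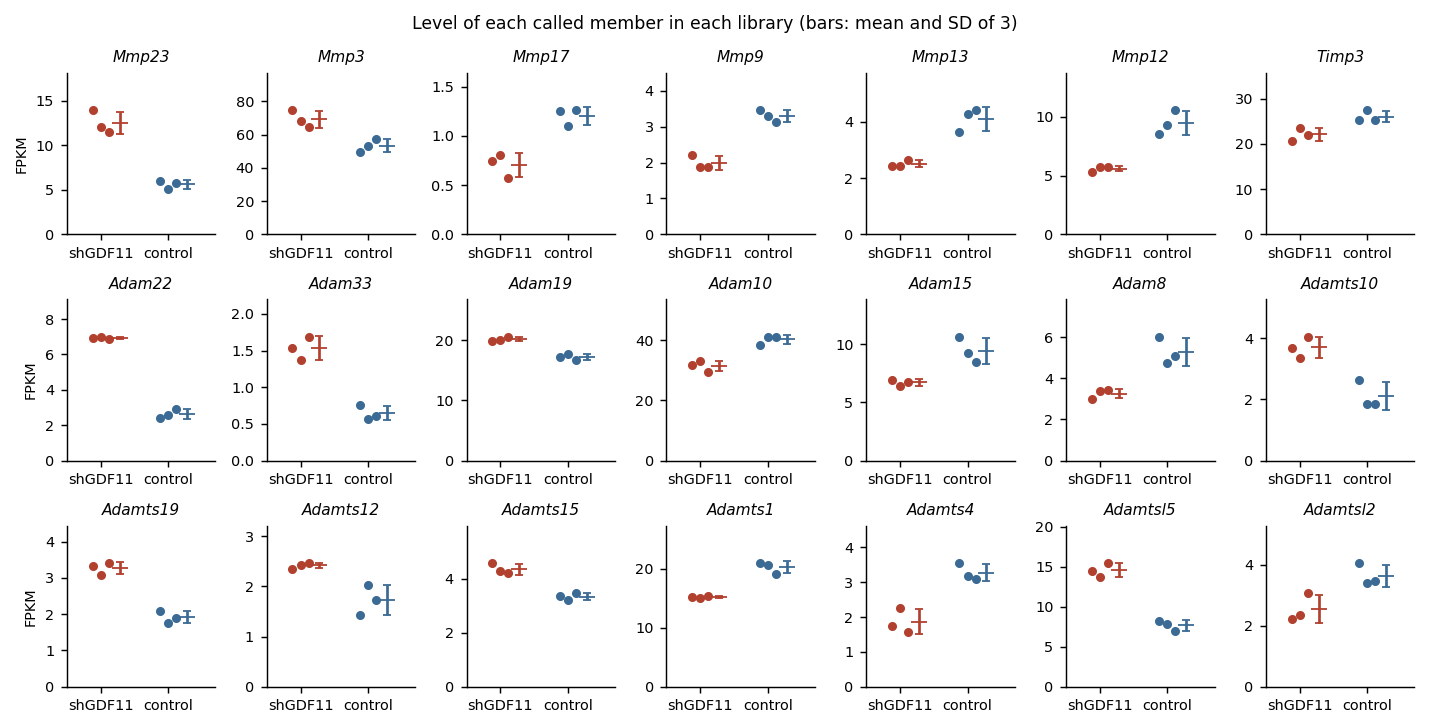
FPKM of the 21 called members in each library, shGDF11 (red) left of control (blue) in each panel, with the mean and SD of 3 libraries beside the points; each y axis starts at 0. In each panel the 3 shGDF11 points lie all above or all below the 3 control points, as for Adam22 at 6.86 to 7.01 FPKM in shGDF11 and 2.38 to 2.91 FPKM in control libraries.

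Among the MMP genes, 17 of 22 were tested, 2 rose (Mmp23 and Mmp3) and 4 fell (Mmp12, Mmp13, Mmp9 and Mmp17). The called share was 35.3%, near the 30.3% of all tested protein-coding genes. Mmp23 encodes a membrane-tethered MMP that is released by proprotein convertases and carries no hemopexin domain. The gene spans 155650655 to 155653384 of chromosome 4, minus strand (GRCm38, as for all positions here). Mmp23 had 13.9, 12.1 and 11.5 FPKM in the shGDF11 libraries, against 6.01, 5.08 and 5.74 FPKM in the control libraries. Every shGDF11 library lay far above every control library, and the log2 fold change was 1.09 ± 0.0956 (SE; limma adjusted p = 0.00063).

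Mmp3, stromelysin-1, which cuts proteoglycans and laminin and activates other MMP precursors, had the highest level of all members. Its values were 74.5, 68.1 and 64.6 FPKM in the shGDF11 libraries, against 49.7, 53.3 and 57.1 FPKM in the control libraries. The groups did not overlap, and replicate 3 of each group came nearest to the other. The log2 fold change was 0.37 ± 0.0786 (SE; limma adjusted p = 0.0146), and the call was lost without shGDF11 replicate 1 (limma adjusted p = 0.0532) and without shGDF11 replicate 2 (0.0531), with a range over 16 alternatives of 0.00309 to 0.0532. Mmp10, stromelysin-2, had 9.22, 10.4 and 8.53 FPKM in the shGDF11 libraries, against 8.72, 6.93 and 8.58 FPKM in the control libraries. These groups overlap and Mmp10 was not called (95% interval of the log2 fold change -0.06 to 0.47).

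Mmp12, the macrophage elastase, fell. Its values were 5.32, 5.70 and 5.69 FPKM in the shGDF11 libraries, against 8.54, 9.32 and 10.5 FPKM in the control libraries. The shGDF11 libraries lay close together and well below the control libraries, with a log2 fold change of -0.71 ± 0.0877 (SE; limma adjusted p = 0.0018). Mmp1b lies on the other strand and shares 2.17% of the exon bases of Mmp12, and no source used here gives whether counting used the strand. Among 7 tested macrophage markers 3 fell (C1qb, C1qa and Lyz2) and 0 rose, and the 8 listed summed to 123.6 to 135.1 FPKM in shGDF11 and 158.5 to 182.1 FPKM in control libraries. The other tested macrophage markers were not called. Csf1r was at 2.37 FPKM in shGDF11 and 2.36 FPKM in control libraries and Adgre1 at 0.929 FPKM in shGDF11 and 0.902 FPKM in control libraries. Cd68 was at 26.5 FPKM in shGDF11 and 30.9 FPKM in control libraries and Cd14 at 1.13 FPKM in shGDF11 and 1.61 FPKM in control libraries. The part of macrophage RNA in the Mmp12 result was not tested, and in bulk RNA fewer cells of a type and less RNA per cell cannot be told apart.

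Mmp13, the main interstitial collagenase of mice, fell as well. It had 2.44, 2.42 and 2.64 FPKM in the shGDF11 libraries, against 3.62, 4.29 and 4.40 FPKM in the control libraries. The groups were apart, with a log2 fold change of -0.61 ± 0.0951 (SE; limma adjusted p = 0.0044). Mmp8, the collagenase of neutrophils, had 1.08 ± 0.227 FPKM in shGDF11 and 1.10 ± 0.0575 FPKM in control libraries (SD, n = 3 each, as for all means here) and was not called (95% interval -0.37 to 0.31). Of the 8 neutrophil markers, Elane was at 0 in every library and the sum was 1.28 to 3.36 FPKM in shGDF11 and 3.30 to 4.13 FPKM in control libraries, with Camp as the only one of 2 tested that fell.

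The gelatinases cut denatured collagen and basement membrane. Mmp9, gelatinase B, had 2.22, 1.86 and 1.87 FPKM in the shGDF11 libraries, against 3.45, 3.29 and 3.12 FPKM in the control libraries. It was lower in each shGDF11 library than in any control library (log2 fold change -0.61 ± 0.0948 SE, limma adjusted p = 0.0045). Mmp2, gelatinase A, at 41.0 ± 0.961 FPKM in shGDF11 and 39.1 ± 2.22 FPKM in control libraries, was not called (95% interval of the log2 fold change -0.07 to 0.21).

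Membrane-type MMPs stay at the cell surface, and Mmp14 (MT1-MMP) activates the precursor of Mmp2 together with Timp2. Mmp14 had 24.6 ± 0.714 FPKM in shGDF11 and 26.9 ± 3.75 FPKM in control libraries and was not called. Mmp15 (MT2-MMP) had 29.3, 28.5 and 30.1 FPKM in the shGDF11 libraries, against 27.7, 26.1 and 22.1 FPKM in the control libraries. Its groups did not overlap, yet it was not called (limma adjusted p = 0.118) except after TPM scaling (0.0285) and without control replicate 1 (0.0449), in a range of 0.0285 to 0.264. Mmp17, which is anchored by a lipid, had 81, 87 and 61 reads (0.745, 0.803 and 0.571 FPKM) in the shGDF11 libraries, against 130, 121 and 136 reads (1.25, 1.10 and 1.26 FPKM) in the control libraries. It fell by 0.50 on the log2 scale (limma adjusted p = 0.0364), but the call did not hold without any 1 of the 6 libraries (limma adjusted p 0.0661 to 0.104 over these), with no filter on low values (0.0986) or after TPM scaling (0.0662). Over 15 alternatives its adjusted p ran from 0.00485 to 0.104.

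Of the other MMPs tested, Mmp11 (stromelysin-3, activated inside the cell by furin) was just outside the threshold. It had 4.36, 4.20 and 4.48 FPKM in the shGDF11 libraries, against 7.26, 6.22 and 4.85 FPKM in the control libraries. The control libraries were spread widely, down to nearly the shGDF11 level. The limma adjusted p was 0.0515, and the gene was called without control replicate 3 (0.00937), at a mean of at least 5 FPKM (0.0358), with library weights (0.0156) and by limma voom (0.0273), in a range of 0.00937 to 0.144; the gene shares 5.58% of its exon bases with Chchd10, a gene at 104.9 FPKM on the other strand. Mmp28 (epilysin) was not called (limma adjusted p = 0.0823) except without control replicate 1 (0.0438), after TPM scaling (0.0436) and with library weights (0.0316), in a range of 0.0316 to 0.228. Mmp16 was not called (limma adjusted p = 0.159) except without the variance trend (0.0378) and by limma voom (0.0329), in a range of 0.0329 to 0.352. Mmp19, Mmp27 and Mmp1b, each under 1 FPKM on average in both groups, were not called.

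A cluster on chromosome 9 holds 9 of the 22 MMP genes, from Mmp13 at its start to Mmp7 at its end, within 427.1 kb (7272514 to 7699585). Mmp13 and Mmp12 at the first end fell, Mmp3 rose, and Mmp1b, Mmp10, Mmp8 and Mmp27 were not called. Mmp20 and Mmp7 had at most 2 reads in any library. Within a library the ratio of Mmp3 to Mmp12 FPKM was 13.997, 11.9 and 11.4 in shGDF11, against 5.82, 5.72 and 5.42 in control libraries. As Mmp3 was higher and Mmp12 lower without overlap in these same libraries, that ratio had to separate the groups and adds no support to the calls. Mmp3 starts 76.3 kb from the end of Mmp12.

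**Figure D3:**
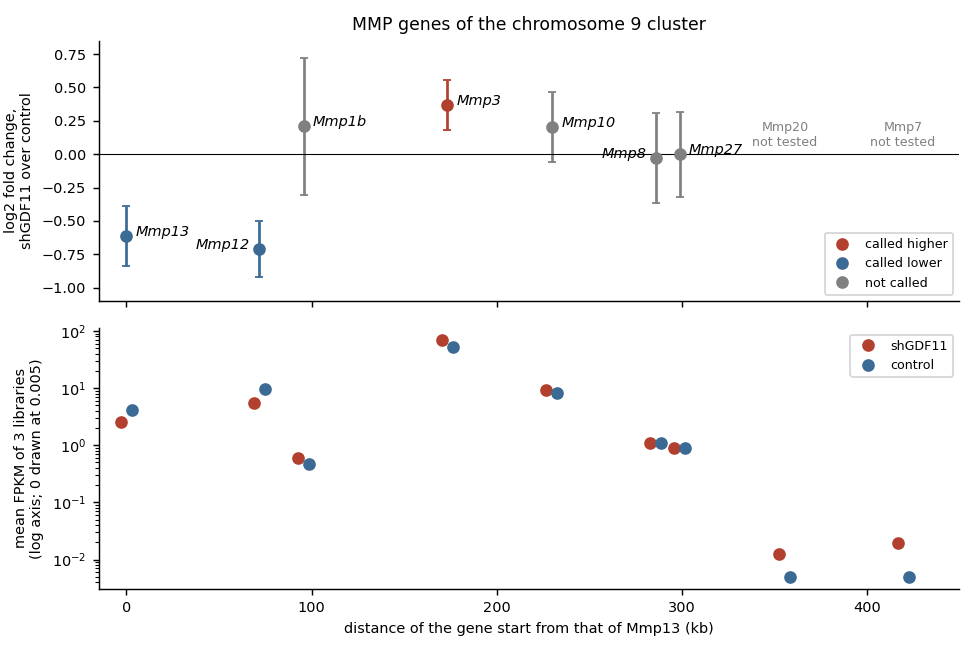
MMP genes of the chromosome 9 cluster by the distance of their start from that of Mmp13 (kb): log2 fold change, shGDF11 over control, with 95% intervals above, and mean FPKM of the 3 libraries per group on a log axis below. Mmp13 (-0.61) and Mmp12 (-0.71) lie below 0 and Mmp3 (0.37) above it, and Mmp20 and Mmp7 were below the filter.

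Upstream sequence of the cluster is shown because its genes are known as targets of AP-1, the dimer of FOS and JUN proteins. A further reason is that Mmp13 and Mmp3, which both hold the element, moved in opposite directions. RefSeq promoter windows (GRCm38.p6) were found for 52 of the 83 members, and the 250 bases before each start were searched for TGANTCA, the AP-1 element, which reads the same on both strands. The element was in 7 of the 17 MMP genes with a window, all 7 of them in the cluster, in 4 of the 17 ADAM genes with one, and in none of the 4 TIMP, 10 ADAMTS or 4 ADAMTSL genes with one. Over all promoter windows 6.75% hold it (35% of the 20 MMP windows). Capitals mark the element in these 4 windows, all on the plus strand, given 5′ to 3′: Mmp13 at chr9:7272264-7272513, Mmp12 at chr9:7347124-7347373, Mmp3 at chr9:7445572-7445821 and Mmp10 at chr9:7502092-7502341.
Mmp13: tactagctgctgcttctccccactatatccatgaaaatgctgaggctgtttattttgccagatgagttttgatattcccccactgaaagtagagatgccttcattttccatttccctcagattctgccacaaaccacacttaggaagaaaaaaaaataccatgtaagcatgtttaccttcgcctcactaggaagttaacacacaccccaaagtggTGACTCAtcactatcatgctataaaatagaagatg
Mmp12: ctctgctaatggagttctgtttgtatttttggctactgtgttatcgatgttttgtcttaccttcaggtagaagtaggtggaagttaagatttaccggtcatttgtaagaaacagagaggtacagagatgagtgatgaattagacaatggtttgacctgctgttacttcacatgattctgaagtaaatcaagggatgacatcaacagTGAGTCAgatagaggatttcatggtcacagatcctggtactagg
Mmp3: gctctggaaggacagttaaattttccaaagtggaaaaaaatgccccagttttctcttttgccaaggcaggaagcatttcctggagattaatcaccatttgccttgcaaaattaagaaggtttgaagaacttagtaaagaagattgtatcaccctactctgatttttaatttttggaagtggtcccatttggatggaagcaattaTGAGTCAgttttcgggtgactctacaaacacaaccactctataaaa
Mmp10: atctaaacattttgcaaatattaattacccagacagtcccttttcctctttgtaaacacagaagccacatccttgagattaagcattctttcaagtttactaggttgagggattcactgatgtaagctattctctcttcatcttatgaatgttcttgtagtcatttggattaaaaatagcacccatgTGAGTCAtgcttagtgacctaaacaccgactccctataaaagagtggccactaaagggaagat
The element begins 35 bases before the start of Mmp13, 44 before that of Mmp12, 46 before that of Mmp3 and 63 before that of Mmp10. Its letters are TGACTCA in Mmp13 and TGAGTCA in the other 3. The Mmp12 window belongs to a start inside the gene as the table bounds it, and the window of the other listed start of Mmp12 holds no element. Of the 4, Mmp13 and Mmp12 fell, Mmp3 rose and Mmp10 was not called. Mmp1b, on the minus strand and not printed here, holds TGAGTCA 93 bases before its start and was not called either. Neither window of Mmp23, the MMP gene with the largest rise, holds the element. A match is a description of letters and does not show binding.

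Of 14 listed transcription factor genes, of the AP-1 and ETS families and related factors, 13 were tested. None of them rose, 9 fell and 4 were not called, and their median was -0.52 on the log2 scale. These counts include Rela, Nfkb1 and Runx2, which belong to neither family. Rela was among the falls, and Nfkb1 and Runx2 were not called. Fosl2 had 5.90 ± 0.173 FPKM in shGDF11 and 13.4 ± 1.27 FPKM in control libraries, Fos 3.11 ± 0.324 FPKM in shGDF11 and 5.63 ± 0.073 FPKM in control libraries, Ets2 16.1 ± 0.106 FPKM in shGDF11 and 21.9 ± 1 FPKM in control libraries, and Fosl1 3.11 ± 0.746 FPKM in shGDF11 and 7.81 ± 1.48 FPKM in control libraries. Their limma adjusted p values were 0.00036 to 0.0037. In the plasminogen system, whose plasmin activates MMP precursors, Plaur and Plau fell. Plaur, the urokinase receptor, had 5.39 ± 0.46 FPKM in shGDF11 and 10.3 ± 0.724 FPKM in control libraries (limma adjusted p = 0.00095), and Plau, urokinase, had 18.1 ± 0.903 FPKM in shGDF11 and 23.3 ± 0.247 FPKM in control libraries (0.0058).

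Of the TIMP genes, 3 were tested and 1 was called. Timp2 was the most abundant, with 57.2, 57.2 and 59.4 FPKM in the shGDF11 libraries, against 57.4, 50.8 and 46.4 FPKM in the control libraries. Control replicate 1 lay inside the shGDF11 range and the other two controls below it. Timp2 was not called (limma adjusted p = 0.166) except without control replicate 1 (0.0235), after TPM scaling (0.0276) and with library weights (0.0388), in a range of 0.0235 to 0.347.

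Timp1 had 31.0, 23.4 and 26.7 FPKM in the shGDF11 libraries, against 46.4, 31.0 and 28.03 FPKM in the control libraries. Control replicate 1 stood far above the rest and the other values overlapped, so the mean difference (-0.35 on the log2 scale, 95% interval -0.80 to 0.11) was not called. Timp3, which binds to matrix and also inhibits ADAM17 and aggrecanases, had 20.7, 23.6 and 22.0 FPKM in the shGDF11 libraries, against 25.3, 27.4 and 25.3 FPKM in the control libraries. The groups were narrowly apart. Timp3 fell by 0.23 on the log2 scale (limma adjusted p = 0.0482). The call did not hold in 10 of 16 alternatives, among them TPM scaling (0.301) and the omission of any 1 library (0.0513 to 0.153), in a range of 0.0202 to 0.301. Timp4, a TIMP known from the adult heart, had at most 7 reads in a library and was below the filter.

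Summed over each family, MMP genes had 215.2, 204.2 and 203.0 FPKM in the shGDF11 libraries, against 193.9, 187.5 and 182.5 FPKM in the control libraries. Mmp3 made up 31.8% to 34.6% of that sum in shGDF11 and 25.6% to 31.3% in control libraries. The summed ADAM level was 140.8 ± 3.1 FPKM in shGDF11 and 146.4 ± 1.73 FPKM in control libraries, and its order turned after TPM scaling (145.5 and 142.2 on that scale). On that scale control replicate 1 was at 130.5, control replicates 2 and 3 at 148.6 and 147.5, and the shGDF11 libraries at 143.2, 149.2 and 144.0. The summed TIMP level was 107.2 ± 2.5 FPKM in shGDF11 and 112.7 ± 14.9 FPKM in control libraries. The ratio of the MMP to the TIMP sum was 1.97, 1.96 and 1.88 in shGDF11, against 1.502, 1.72 and 1.83 in control libraries, so that the highest control library (replicate 3) came close to the lowest shGDF11 library.

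**Figure D4:**
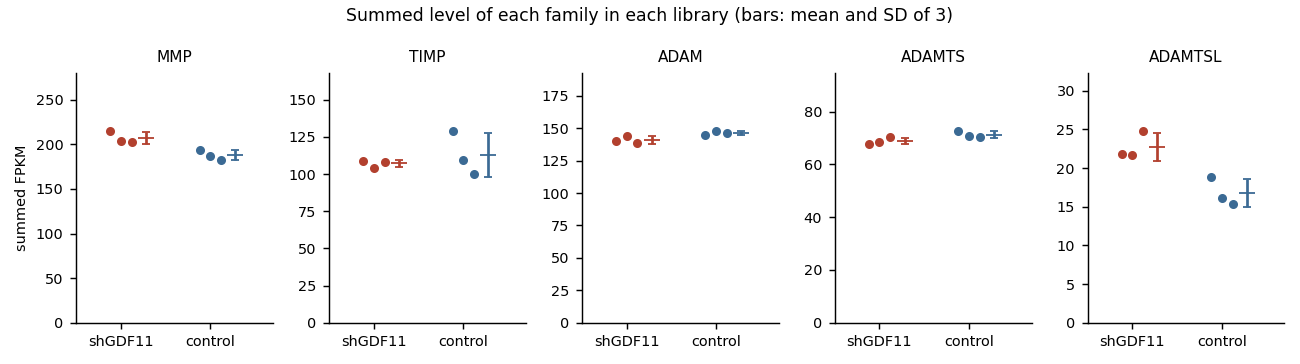
Summed FPKM of each family in each library, shGDF11 (red) left of control (blue), with the mean and SD of 3 libraries; axes start at 0. The MMP and ADAMTSL sums are higher in all 3 shGDF11 libraries than in any control library, and the TIMP sums overlap.

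Of the ADAM genes, 11 of 33 were tested, 3 rose (Adam22, Adam33 and Adam19) and 3 fell (Adam8, Adam15 and Adam10). The called share was 54.5% of these 11 genes, against 30.3% of all tested protein-coding genes. Adam22, a protein without protease activity that is known as a receptor of LGI1 in neurons, changed the most of all members. Its gene spans 8072352 to 8368160 of chromosome 5, minus strand. Adam22 had 1632, 1647 and 1588 reads (6.92, 7.01 and 6.86 FPKM) in the shGDF11 libraries, against 537, 618 and 680 reads (2.38, 2.58 and 2.91 FPKM) in the control libraries. The 3 shGDF11 values were almost equal and all far above the control values. The log2 fold change was 1.25 ± 0.083 (SE; limma adjusted p = 0.0003). Of its relatives without protease activity, Adam11 had 1.11 ± 0.115 FPKM in shGDF11 and 1.20 ± 0.254 FPKM in control libraries, and Adam23 had 0.538 ± 0.0876 FPKM in shGDF11 and 0.515 ± 0.0507 FPKM in control libraries; neither was called.

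Adam10 and Adam17 are the main sheddases of Notch and cadherins and of TNF and EGF receptor ligands. Adam10 had 31.7, 33.1 and 29.6 FPKM in the shGDF11 libraries, against 38.4, 41.2 and 41.2 FPKM in the control libraries. It was lower in all 3 (log2 fold change -0.35 ± 0.065 SE, limma adjusted p = 0.0088) and lost its call after TPM scaling (0.0715), in a range of 0.00151 to 0.0715. Within a library the ratio of Adam10 to Adam9 FPKM was 0.615, 0.607 and 0.573 in shGDF11, against 0.754, 0.788 and 0.791 in control libraries, a measure that library scaling leaves as it is. Adam10 was already lower without overlap in these same libraries, so the separation of this ratio adds no support to the call. Adam9, the most abundant ADAM, had 52.6 ± 1.74 FPKM in shGDF11 and 51.8 ± 0.748 FPKM in control libraries, and Adam17 had 13.2 ± 0.656 FPKM in shGDF11 and 13.96 ± 0.994 FPKM in control libraries. Neither was called, with 95% intervals of the log2 fold change of -0.10 to 0.15 for Adam9 and -0.26 to 0.10 for Adam17.

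Adam8, an ADAM known from leukocytes, had 3.00, 3.36 and 3.41 FPKM in the shGDF11 libraries, against 6.02, 4.72 and 5.10 FPKM in the control libraries. The groups were well apart, with a log2 fold change of -0.62 ± 0.103 (SE; limma adjusted p = 0.0060). Adam15, known from endothelial cells, had 6.93, 6.42 and 6.75 FPKM in the shGDF11 libraries, against 10.6, 9.22 and 8.44 FPKM in the control libraries. It fell by 0.46 on the log2 scale (limma adjusted p = 0.012), and without shGDF11 replicate 2 the call was lost (0.0524), in a range of 0.0016 to 0.0524. Of 8 endothelial markers, all tested, 6 fell (Tie1, Cdh5, Vwf, Kdr, Pecam1 and Egfl7) and 0 rose, with sums of 46.7 to 49.8 FPKM in shGDF11 and 68.1 to 73.0 FPKM in control libraries. Their part in the Adam15 result was not tested.

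Adam33, an ADAM of mesenchymal cells, had 136, 121 and 147 reads (1.53, 1.37 and 1.69 FPKM) in the shGDF11 libraries, against 64, 51 and 54 reads (0.755, 0.567 and 0.614 FPKM) in the control libraries. All shGDF11 values were well above the control values (log2 fold change 0.83 ± 0.135 SE, limma adjusted p = 0.0054). By limma voom on the recovered reads, which adds no 0.5 FPKM, its log2 fold change was 1.25. Adam19, which is needed for heart valve and septum formation in mice, had 19.9, 20.02 and 20.6 FPKM in the shGDF11 libraries, against 17.2, 17.8 and 16.8 FPKM in the control libraries. The rise was small but larger than the spread (log2 fold change 0.22 ± 0.0545 SE, limma adjusted p = 0.0248). It was not called without shGDF11 replicate 1 (0.0718), 2 (0.0854) or 3 (0.0938) or control replicate 3 (0.0558), in a range of 0.0169 to 0.0938. Adam12, a sheddase of HB-EGF, was not called at 2.22 ± 0.089 FPKM in shGDF11 and 2.43 ± 0.17 FPKM in control libraries.

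The transmembrane substrates of ADAM sheddases moved both ways. Of 20 listed, 18 were tested, 4 rose and 5 fell. Hbegf, heparin-binding EGF-like growth factor, had 8.04 ± 0.349 FPKM in shGDF11 and 27.1 ± 3.83 FPKM in control libraries, and Ereg, epiregulin, had 1.76 ± 0.136 FPKM in shGDF11 and 3.59 ± 0.161 FPKM in control libraries. Tgfa, another ligand of the EGF receptor, had 2.04 ± 0.102 FPKM in shGDF11 and 0.882 ± 0.0472 FPKM in control libraries, and Vcam1 had 24.4 ± 0.692 FPKM in shGDF11 and 18.7 ± 0.751 FPKM in control libraries. The limma adjusted p values of these 4 were 0.00028 to 0.0043. Among 14 tested of 17 genes that activate, mature or restrain these enzymes, Pcsk5 rose and Pcsk6 and Rhbdf2 fell. Of all tested genes, 27.6% were called. Pcsk5, a proprotein convertase, had 3.25 ± 0.286 FPKM in shGDF11 and 1.15 ± 0.0465 FPKM in control libraries (log2 fold change 1.18, limma adjusted p = 0.00056). Rhbdf2 (iRhom2), which matures ADAM17, had 7.95 ± 0.801 FPKM in shGDF11 and 10.6 ± 1.05 FPKM in control libraries (limma adjusted p = 0.0272), and Pcsk6 had 6.91 ± 0.826 FPKM in shGDF11 and 9.33 ± 0.495 FPKM in control libraries (0.0184). Furin, with 23.0 ± 1.93 FPKM in shGDF11 and 29.9 ± 4.32 FPKM in control libraries, was just outside the threshold (limma adjusted p = 0.0508). By limma voom it was called lower (0.0092).

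Of the ADAMTS genes, 15 of 19 were tested, 4 rose (Adamts10, Adamts19, Adamts12 and Adamts15) and 2 fell (Adamts4 and Adamts1). The called share was 40%, against 30.3% of all tested protein-coding genes. Adamts1, Adamts4, Adamts5, Adamts8, Adamts9, Adamts15 and Adamts20 are the proteoglycan-cutting branch, and 2 of its 6 tested genes fell and 1 rose. Adamts1, the most abundant ADAMTS, which cuts versican and aggrecan, had 15.1, 15.0 and 15.3 FPKM in the shGDF11 libraries, against 20.97, 20.6 and 19.1 FPKM in the control libraries. The shGDF11 libraries were nearly equal and all below the control libraries (log2 fold change -0.40 ± 0.0591 SE, limma adjusted p = 0.0035).

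Adamts4, aggrecanase-1, had 137, 179 and 123 reads (1.73, 2.27 and 1.59 FPKM) in the shGDF11 libraries, against 269, 255 and 243 reads (3.56, 3.18 and 3.10 FPKM) in the control libraries. It was lower in each shGDF11 library (log2 fold change -0.69 ± 0.127 SE, limma adjusted p = 0.0089). Adamts5, aggrecanase-2, had 3.41 ± 0.324 FPKM in shGDF11 and 3.32 ± 0.26 FPKM in control libraries and was not called; it lies 53.1 kb from Adamts1 on chromosome 16. The ratio of Adamts1 to Adamts5 FPKM was 4.85, 4.47 and 4.07 in shGDF11, against 6.84, 5.75 and 5.78 in control libraries. Its separation rests on the Adamts1 values above and adds no support to them.

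Adamts15 had 4.60, 4.28 and 4.22 FPKM in the shGDF11 libraries, against 3.37, 3.21 and 3.47 FPKM in the control libraries. It was higher in each (log2 fold change 0.34 ± 0.0742 SE, limma adjusted p = 0.0161). The call was lost without shGDF11 replicate 1 (0.0632), shGDF11 replicate 2 (0.0566) or control replicate 2 (0.0547), in a range of 0.0036 to 0.0632. Adamts8, an ADAMTS with anti-angiogenic activity, lies 20.1 kb away on chromosome 9. Its values were 5.83, 6.75 and 6.52 FPKM in the shGDF11 libraries, against 8.07, 7.01 and 7.57 FPKM in the control libraries. They were lower without overlap and were not called (limma adjusted p = 0.0833). The ratio of Adamts15 to Adamts8 FPKM was 0.789, 0.634 and 0.647 in shGDF11, against 0.417, 0.458 and 0.458 in control libraries. Its separation follows from the values above and adds no support to them. Adamts9 was not called (limma adjusted p = 0.19).

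The procollagen N-proteinases Adamts2, Adamts3 and Adamts14, which remove the amino-terminal propeptide of fibrillar procollagens, were not called. Adamts2 had 12.4 ± 0.287 FPKM in shGDF11 and 12.3 ± 0.539 FPKM in control libraries, with a 95% interval of the log2 fold change of -0.14 to 0.15. Adamts14 had 2.81 ± 0.0838 FPKM in shGDF11 and 2.46 ± 0.266 FPKM in control libraries and Adamts3 had 1.28 ± 0.0598 FPKM in shGDF11 and 1.02 ± 0.241 FPKM in control libraries. Pcolce, an enhancer of the carboxy-terminal procollagen proteinase, rose in the same libraries, with 103.7 ± 3.66 FPKM in shGDF11 and 80.4 ± 5.78 FPKM in control libraries (limma adjusted p = 0.0098). Bmp1, that proteinase, had 16.6 ± 0.51 FPKM in shGDF11 and 15.6 ± 1.05 FPKM in control libraries and was not called. Among the 13 listed metalloproteinases and enhancers outside the rule, 7 were tested, Pcolce rose and Ece1, the endothelin-converting enzyme, fell (10.5 ± 0.277 FPKM in shGDF11 and 16.9 ± 1.43 FPKM in control libraries, limma adjusted p = 0.0014). Of all tested genes, 27.6% were called.

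Adamts10, a partner of fibrillin microfibrils, had 3.69, 3.36 and 4.06 FPKM in the shGDF11 libraries, against 2.64, 1.86 and 1.84 FPKM in the control libraries. Control replicate 1 stood above the other controls and still below the lowest shGDF11 library (log2 fold change 0.70 ± 0.138 SE, limma adjusted p = 0.0113). Adamts19, known from heart valves, had 3.33, 3.09 and 3.41 FPKM in the shGDF11 libraries, against 2.10, 1.76 and 1.91 FPKM in the control libraries. It was higher in each by more than the spread (log2 fold change 0.64 ± 0.0923 SE, limma adjusted p = 0.0034). Adamts12 had 2.35, 2.43 and 2.47 FPKM in the shGDF11 libraries, against 1.43, 2.03 and 1.72 FPKM in the control libraries. The control libraries were spread and the rise of 0.40 on the log2 scale (limma adjusted p = 0.0465) was lost without shGDF11 replicate 1 (0.104), 2 (0.127) or 3 (0.128), control replicate 1 (0.0757) or control replicate 3 (0.0875), in a range of 0.00713 to 0.128. With no filter on low values it was 0.121 and with library weights 0.0605. Adamts6, at 2.07 ± 0.0792 FPKM in shGDF11 and 2.66 ± 0.291 FPKM in control libraries, was not called (limma adjusted p = 0.0657) except without control replicate 1 (0.0472), with library weights (0.0348) and by limma voom (0.0272), in a range of 0.0272 to 0.225. Adamts7 and Adamts17 were not called.

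Of 9 tested ADAMTS substrates among 14 listed, 4 rose and 2 fell. Vcan, versican, had 19.0 ± 0.883 FPKM in shGDF11 and 26.4 ± 3.05 FPKM in control libraries (limma adjusted p = 0.0129), and Vwf, von Willebrand factor and also an endothelial marker, had 1.25 ± 0.0844 FPKM in shGDF11 and 2.47 ± 0.27 FPKM in control libraries (0.0034). Fbn2, fibrillin-2, had 19.3 ± 0.715 FPKM in shGDF11 and 11.8 ± 1.45 FPKM in control libraries (0.0025), and Ltbp1 had 10.2 ± 0.223 FPKM in shGDF11 and 7.58 ± 0.243 FPKM in control libraries (0.0037). Col3a1 and Col1a2, which rose too, are also in the fibroblast list, where Ddr2 was the other rise among 9 tested genes and 0 fell. In that list Col1a1, Postn, Lum and Dcn had higher means in shGDF11 and were not called. Pdgfra (3.77 FPKM in shGDF11 and 4.31 FPKM in control libraries) and Tcf21 (1.99 and 2.28 FPKM) had lower means and were not called either. The part of cell composition in the ADAMTS results was not tested.

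The ADAMTSL proteins bind fibrillin microfibrils and have no protease domain; 4 of 5 genes were tested. Adamtsl5 had 14.5, 13.8 and 15.5 FPKM in the shGDF11 libraries, against 8.22, 7.81 and 6.95 FPKM in the control libraries. All shGDF11 libraries were far above the controls (log2 fold change 0.89 ± 0.0822 SE, limma adjusted p = 0.00079). The gene spans 80339110 to 80348412 of chromosome 10, minus strand, and made up 62.4% to 66.4% of the summed ADAMTSL level in shGDF11 and 43.7% to 48.3% in control libraries. Adamtsl2, which binds a TGF-beta binding protein and is mutated in human geleophysic dysplasia, had 2.21, 2.37 and 3.06 FPKM in the shGDF11 libraries, against 4.07, 3.42 and 3.46 FPKM in the control libraries.

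Adamtsl2 thus fell by 0.45 on the log2 scale (limma adjusted p = 0.0374), with shGDF11 replicate 3 nearest to the controls. The call held without shGDF11 replicate 3. It was lost without shGDF11 replicate 1 (0.113), shGDF11 replicate 2 (0.121), control replicate 1 (0.0856), control replicate 2 (0.0716) or control replicate 3 (0.0613), with no filter on low values (0.0939) and after TPM scaling (0.0657), in a range of 0.00593 to 0.121. Adamtsl3 had 1.40 ± 0.0583 FPKM in shGDF11 and 1.02 ± 0.13 FPKM in control libraries and was not called (limma adjusted p = 0.0881) except without the variance trend (0.0376), with library weights (0.0358) and by limma voom (0.0262), in a range of 0.0262 to 0.219. Adamtsl4 was not called, with control replicate 1 at 5.15 FPKM and the other libraries at 3.17 to 4.13 FPKM.

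Below the filter were 33 members: 22 ADAM, 5 MMP, 4 ADAMTS, 1 ADAMTSL and 1 TIMP gene. Adam20, Adam24, Adam26a, Adam26b, Adam29, Adam34, Adam6a and Adam6b had 0 reads in every library; most of these are known from testis. A count of 0 allows up to 3 reads, or 0.18 to 0.191 FPKM for a gene of 1 kb, by counting error only. The other 25 had at most 147 reads in a library, and 17 of the 33 had at most 3 in every library. Adamtsl1 was nearest to the filter, with 109, 147 and 140 reads in the shGDF11 libraries, against 61, 66 and 76 reads in the control libraries. These do not overlap, and the gene was not called when 31874 genes, 75 of the members among them, were tested with no filter on low values. Adam1a shares 63.65% of its exon bases with a same-strand gene, and the copies Adam1b, Adam6a and Adam6b, and Adam26a and Adam26b, can share reads with their partners, so single levels there are uncertain.

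The remaining marker lists gave these counts. Of 6 smooth muscle markers 4 fell (Acta2, Cnn1, Myh11 and Tagln), with sums of 397.7 to 403.9 FPKM in shGDF11 and 1002 to 1082 FPKM in control libraries. Most of these sums is Acta2, at 370.3 FPKM in shGDF11 and 992.9 FPKM in control libraries. Tagln had only 9 to 39 reads in a library. Lmod1 and Smtn were not called, with Smtn at 16.8 FPKM in shGDF11 and 17.1 FPKM in control libraries. Of 5 pericyte markers Cspg4 fell, with sums of 65.5 to 66.3 FPKM in shGDF11 and 66.4 to 72.2 FPKM in control libraries. Of 6 epicardial and mesothelial markers Upk3b, Tbx18 and Aldh1a2 rose and Krt19 fell, with sums of 32.9 to 33.1 FPKM in shGDF11 and 28.2 to 29.6 FPKM in control libraries. The 6 erythroid markers were all below the filter, with sums of 0.421 to 0.878 FPKM in shGDF11 and 0.125 to 0.452 FPKM in control libraries. Among the cardiomyocyte markers Tnni3, Myl2 and Myl7 rose and Actn2 and Ryr2 fell. Their part in the members' results was not tested.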

How the data were processed

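The deposited FPKM values were computed by the authors for 54532 Ensembl genes in 6 libraries. The submitters' processing notes name the builds GRCm38 and mm10 and, as tools, featureCounts 1.5.0-p3, HISAT2 2.0.5 and CASAVA 1.8, with no role. For the annotation release and strand setting, nothing is given in the sources used here. Among the 83 members, 82 have the coordinates of GENCODE M21 on GRCm38 (the exception is Adamts19). Multiplied by gene length, each library's values fell on whole steps (100% of positive values within 0.05), which gave the reads; intervals and floors (3 reads) cover counting error only. No columns were left unused.

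Tests used limma 3.58.1 in R 4.3.3 on log2(FPKM + 0.5) of genes averaging 0.5 FPKM or more (eBayes with variance trend, two-sided, Benjamini-Hochberg over all 15418 tested genes), after the same code was tested on simulated reads. Reads were used only in an alternative, limma voom. Exact permutation tests used scipy 1.17.1. The members and gene lists were chosen with earlier results of these data known. All called members, members not called at 5 FPKM or more, and up to 4 called genes per list in order of p are named, with others named to identify small counts or the limits of a list. No protein sequences were used here, and some results on genes outside the families are not reported here. Same-numbered libraries did not deviate together (correlations 0.0153, 0.0149 and -0.0521), so the replicate number is not taken as a pairing. Alternatives were the pseudocount (0.1 and 1), the filter, the scaling, the variance trend, library weights, voom, the replicate number as a block and leaving out each library.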

Additional observations from a re-analysis of the deposited data

How the results depend on the processing

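Of the 21 called members, 12 stayed called under every alternative in which they were tested: Mmp23, Mmp12, Mmp13, Mmp9, Adam22, Adam33, Adam8, Adamts1, Adamts4, Adamts10, Adamts19 and Adamtsl5. None of the called members changed direction. The main test called 4253 genes, and 2328 to 4233 were called with 1 library left out; leaving out shGDF11 replicate 1 gave 2720 calls, replicate 2 gave 2328 and replicate 3 gave 2529. The 10 member rises were 6 to 12 and the 11 falls 7 to 9 with 1 library left out, with 6 rises without shGDF11 replicate 1 or 2 and 7 falls without shGDF11 replicate 2. At a mean of at least 5 FPKM, where 20 members were tested, 4 rose and 6 fell. Of the 7798 genes tested in that setting, 37.5% were called. After TPM scaling 7 fell. With the replicate number as a block, 3223 genes were called and 7 members rose and 8 fell; Mmp3 (limma adjusted p = 0.0514), Adam19, Adamts12, Adamtsl2, Mmp17 and Timp3 were not called there, and shGDF11 libraries did not all correlate best with the control of their number. Timp3 was also not called without the variance trend (0.0809) and with no filter (0.0814). After TPM scaling the sums of the TIMP, ADAM and ADAMTS families turned from 95.1%, 96.2% and 96.6% of control to 101.7%, 102.3% and 102.9%. That scaling changed control replicate 1 the most, by -0.147 on the log2 scale, against 0.006 and 0.009 for control replicates 2 and 3. With 3 libraries a group and about 50 to 150 reads, changes of the lowest members are the least certain.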
